A study of Mus musculus with 15 samples.

Results

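Olfactory and vomeronasal receptors are the chemoreceptors of the nose, and transcripts of some of them have long been known from the testis. Genes of the Olfr, Vmn1r, Vmn2r and Taar families were taken by their symbols, pseudogenes with names in -ps were left out, and those with a mean of at least 10 normalised counts over all 15 libraries were kept. This left 139 of the 1449 receptor genes in the table (9.59%), among 36118 genes in all. The members were thus chosen by their mean level, and their levels below are a description of what that choice holds. The 1310 other receptors fell short of the mean of 10 and entered no test.

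Whole testes of C57/BL6 mice were sequenced in 5 groups of 3 libraries, labelled Control, MTX, HMS-I1, AA and TSA. The labels do not spell out the treatments and give no dose, age or duration. For HMS-I1 the titles name 3 replicates, while the treatment field names HMS-I1, HMS-I2 and HMS-I3, so that every HMS-I1 value below rests on the titles. The labels do not say that the replicates were separate animals, so p-values measure the spread between these libraries, which may be technical. The series concerns histone modification and chromosome organisation in meiotic prophase.

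In the nose, each olfactory sensory neuron transcribes a single odorant receptor gene, whose protein signals through the G protein subunit encoded by Gnal, the adenylyl cyclase Adcy3 and a cyclic nucleotide-gated channel. Vomeronasal neurons detect pheromones with receptors of the Vmn1r family, which pair with Gnai2, or of the Vmn2r family, which pair with Gnao1, and both kinds of neuron signal through the channel Trpc2. Sperm have their own cyclic AMP and calcium machinery, built around the soluble cyclase Adcy10 and the CatSper channel, and odorant receptors in sperm have been discussed as sensors that feed into it.

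The libraries did not form a single even series. In 6 of them, called the first set here (Control 1, Control 2 and the library numbered 1 of every treatment), the mean log2 level of 60 Hist genes was 7.79 to 8.82. In the other 9 it was 2.95 to 3.86, and mitochondrial protein genes made up 3.54% to 13.7% of the summed signal, against 1.08% to 1.40% in the first set. The split was drawn from these histone genes, so no test of it is given. Depth is not known, but by the most frequent low value of a library, taken as 1 read, a value of 10 stood for about 3.82 to 5.04 reads in first-set libraries and 10.9 to 22.1 in the others. By that estimate low receptors had more counting error in the first set. Of 39 marker genes of Sertoli, Leydig, germ and macrophage cells, checked against the labelled tissue, 39 had a mean of at least 10.

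To show what lies upstream of the receptors the results turn on, the 250 bases before the RefSeq start of 5 of them are given, 5′ to 3′ on the gene's own strand (RefSeq, build GRCm38.p6). Olfr46 (chr7:140601090-140601339, plus strand), Vmn2r7 (chr3:64719603-64719852, minus) and Olfr701 (chr7:106813879-106814128, plus) had the highest levels per kilobase of transcript. Vmn2r10 (chr5:109006437-109006686, minus) and Vmn2r107 (chr17:20345175-20345424, plus) rose and fell together across libraries. Capitals mark a match to a searched motif, a MYB-type site in Vmn2r7 and a TATA box, read on the other strand, in Olfr701.
Olfr46: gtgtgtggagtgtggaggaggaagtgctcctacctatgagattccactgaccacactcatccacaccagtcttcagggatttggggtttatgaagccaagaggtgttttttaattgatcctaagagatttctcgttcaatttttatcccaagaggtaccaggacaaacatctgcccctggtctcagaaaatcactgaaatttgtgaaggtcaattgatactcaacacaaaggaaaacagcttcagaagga
Vmn2r7: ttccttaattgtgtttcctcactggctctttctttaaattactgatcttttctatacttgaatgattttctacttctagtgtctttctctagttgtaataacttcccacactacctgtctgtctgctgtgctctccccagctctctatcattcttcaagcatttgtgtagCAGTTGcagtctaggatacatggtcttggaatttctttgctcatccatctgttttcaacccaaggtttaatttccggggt
Olfr701: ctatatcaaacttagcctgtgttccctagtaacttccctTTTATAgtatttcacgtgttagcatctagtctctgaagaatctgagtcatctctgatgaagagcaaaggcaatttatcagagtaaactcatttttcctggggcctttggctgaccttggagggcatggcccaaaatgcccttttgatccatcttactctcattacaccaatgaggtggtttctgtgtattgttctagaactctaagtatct
Vmn2r10: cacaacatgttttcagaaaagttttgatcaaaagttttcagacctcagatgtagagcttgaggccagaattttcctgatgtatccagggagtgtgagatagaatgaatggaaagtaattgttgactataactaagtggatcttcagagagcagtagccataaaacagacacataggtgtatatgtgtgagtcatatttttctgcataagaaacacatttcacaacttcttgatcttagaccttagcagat
Vmn2r107: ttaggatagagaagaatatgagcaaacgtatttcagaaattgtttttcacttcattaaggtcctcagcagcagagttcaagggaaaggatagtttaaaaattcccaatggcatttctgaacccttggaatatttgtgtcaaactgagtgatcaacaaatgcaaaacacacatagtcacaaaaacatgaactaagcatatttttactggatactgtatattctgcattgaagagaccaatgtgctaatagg

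Receptor upstream windows were poor in G and C. RefSeq windows were matched for 125 of the 139 members (126 windows). Their median GC content was 36.8%, close to the 34.4% of 1119 windows of receptors under the mean of 10 and far from the 52.4% of all 32851 windows. The median window of a member held 1 CpG, as did that of the other receptors, against 6 over all windows. A set of 6 motifs was searched on both strands, namely the cyclic AMP response element TGACGT, the RFX site GTTGCC, the MYB site CNGTTG, the O/E site CCCNNGGG bound by EBF proteins, the homeodomain core TAATTA and the TATA box TATAAA. The MYB and RFX sites share the letters GTTG, so a single stretch can count for both. The start of transcription used in testis was not measured, and a match is only a match of letters.

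Member windows resembled those of the other receptors more than those of genes at large. A TATA box was in 28.6% of member windows, 39.0% of those of the other receptors and 12.4% of all windows. The homeodomain core was in 13.5%, 16.8% and 4.84%. Among motifs known from spermatocyte and spermatid promoters, MYB sites were in 21.4% of member windows and 23.3% of the others, cyclic AMP response elements in 1.59% and 1.43%, and RFX sites in 2.38% and 3.04%, against 29.3%, 6.47% and 10.4% of all windows. O/E sites were in 4.76%, 3.75% and 11.8%. The 31 windows of members that lay higher in every first-set library than in every second-set library held a MYB site in 10 (32.3%), a TATA box in 9 (29.0%), the homeodomain core in 5 (16.1%), a cyclic AMP response element in 1 (3.23%) and RFX or O/E sites in 0.

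The share of receptor genes with a mean of at least 10 differed between families. Olfr genes, the odorant receptors of the main olfactory epithelium, had 83 members of 1108 (7.49%). Vmn1r genes had 27 of 207 (13.0%) and Vmn2r genes 29 of 119 (24.4%). The cut was not corrected for transcript length, with medians of 2970 bases for Olfr, 5770 for Vmn1r and 7340 for Vmn2r members. Per kilobase the median member level was 8.21, 4.51 and 4.91, so these shares do not rank the families by level. Trace amine-associated receptors (Taar) had 0 of 15, and 14 of them were listed at 0 in every library. In all, 534 receptor genes (36.9%) were at 0 in every library, 502 had a mean above 0 but under 1, and 274 had a mean of 1 to 10. By contrast, 76.2% of the 21789 protein-coding genes in the table had a mean of at least 10, and so did 2.99% of 535 receptor pseudogenes. Olfr16, a receptor known from mouse sperm and named here from that background and not by the naming rule, was listed at 0 in all 15 libraries. Whether the unnamed annotation gives its reads to another gene could not be checked, so this 0 does not show that its transcript was absent.

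Most members were low. The median member mean was 23.7 normalised counts, against 448 for all 17896 genes with a mean of at least 10. Per kilobase of transcript the medians were 6.98 and 253, and Olfr46 alone of the 139 lay above the latter. A mean of at least 50 was reached by 34 members and of at least 100 by 18, while 57 lay under 20. The 2 members with the highest means, Vmn2r7 and Olfr46, held 20.8% of the summed member level and the 10 highest held 45.4%. Olfr members contributed 61.8% of that sum, Vmn2r members 27.7% and Vmn1r members 10.5%.

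The cut at a mean of 10 fell within a continuum. Just inside it lay Olfr607 at a mean of 10.01, Olfr1284 at 10.1 and Olfr697 at 10.2. Just outside lay Olfr1413 at 9.99, Olfr872 at 9.92 and Olfr1031 at 9.80, the last at 121 in Control replicate 3 and at 0 in 7 libraries. Without their highest library 16 members would have had a mean under 10. Signal above 0 was present in every library for 129 members, and a value of at least 10 in every library for 36.

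Olfr46 had the highest level per kilobase, 257 (mean 847 normalised counts). It was at 594, 612 and 1445 in Control, 576, 4590.1 and 234 in MTX, 644, 1109 and 104 in HMS-I1, 596, 719 and 304 in AA, and 599.8, 498 and 75.6 in TSA, in the order of the replicates. The 6 first-set libraries lay within 576 to 644, while the second set ran from 75.6 to 4590.1, above and below them. No treatment group separated from Control.

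Vmn2r7 (151 per kilobase, mean 879.6) behaved differently. It was at 1342, 1587 and 566 in Control, 1530.2, 819 and 594 in MTX, 1590.4, 749 and 362 in HMS-I1, 1298, 582 and 479 in AA, and 1346, 157 and 193 in TSA. Every first-set library lay above every second-set library, and the TSA pair in the second set was lowest. This gene shares 58.6% of the 31-base words of its transcripts with its relative Vmn2r6, which was itself listed at a mean of 5.14, so reads of these 2 could have been divided in more than 1 way.

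Olfr701 (134 per kilobase) shared only 2.25% of its 31-base words with other genes. Its values were 529, 624 and 267 in Control, 401, 301 and 462 in MTX, 564, 259 and 351 in HMS-I1, 518, 386 and 288 in AA, and 539.8, 111 and 160.5 in TSA. The libraries of TSA replicates 2 and 3 were the lowest of the 15, and the groups overlapped. The next 7 by level per kilobase were Olfr112 (128), Olfr1033 (97.4), Olfr275 (85.9), Olfr539 (70.2), Olfr1385 (69.6), Olfr986 (59.9) and Olfr303 (56.3), all odorant receptors. In the Vmn1r family the highest were Vmn1r4 (29.9) and Vmn1r181 (21.3), and after Vmn2r7 the highest of the Vmn2r family was Vmn2r68 (21.0).

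**Figure D1:**
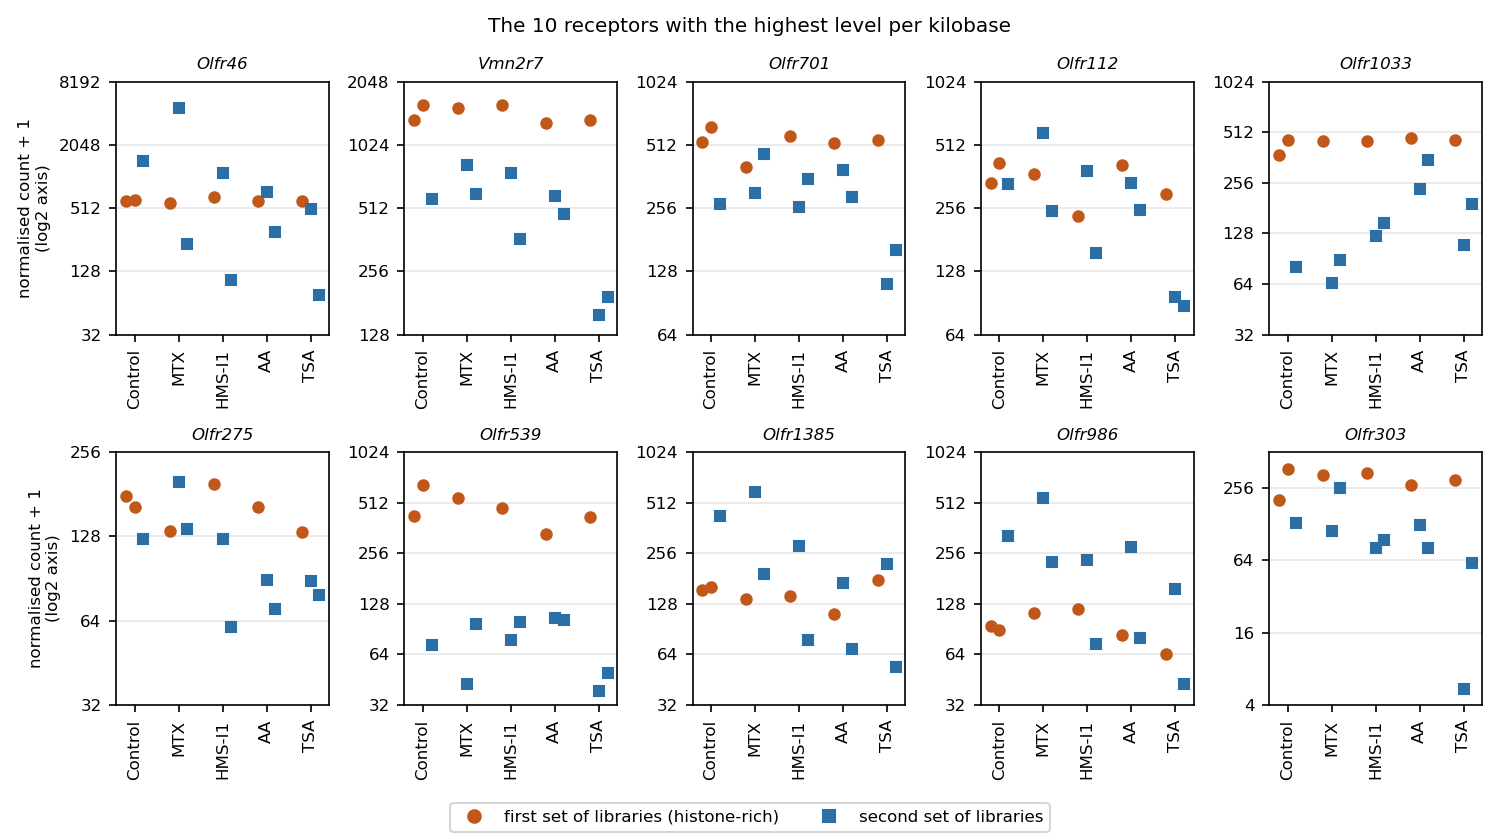
Normalised count + 1 (log2 axis) of the 10 receptors with the highest level per kilobase, by group, with 1 point per library in replicate order, circles for the first set and squares for the second. Vmn2r7, Olfr1033 and Olfr539 have every circle above every square, while Olfr46, Olfr1385 and Olfr986 have squares on both sides of the circles.

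Members had long annotated transcripts. The mean transcript length of a member was 3596 bases at the median, against 2027 for receptors under the mean of 10, while the coding lengths were 945 and 939. A longer transcript collects more reads at the same abundance, and the mean of 10 was not corrected for length. The median member shared 12.4% of its 31-base words with transcripts of other genes, 46 shared over 20% and 2 over 50%, Vmn2r7 (67.0%) and Vmn2r29 (79.9%). For Vmn2r members the median share was 22.6%, for Olfr 11.0% and for Vmn1r 10.8%.

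Exons of 24 members overlapped those of another gene, 14 on the same strand and 11 on the other. Whether reads were counted by strand is not known from these sources, so signal of such pairs cannot be fully told apart. Olfr56 lies over Ifi47, an interferon-inducible GTPase gene, on the same strand. Olfr56 was at 2.32 to 6.18 in first-set and 2.77 to 62.2 in second-set libraries, Ifi47 was at 14.4 to 53.3 and 33.7 to 497, and their log2 values had a Pearson r of 0.767 over the 15 libraries. Vmn1r90 overlaps Nlrp5-ps in the same way (r = 0.805), with Vmn1r90 at 9.45 to 76.8 in first-set and 1.16 to 10.3 in second-set libraries. For Vmn2r29 and Gm45844 the r was only 0.01.

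Receptor signal varied widely between libraries of the same group. The 139 members summed to 9872 to 11319 normalised counts in the first set, a ratio of 1.15 between the highest and the lowest library. In the second set they summed to 2548 in TSA replicate 3 and to 16738 in MTX replicate 2, a ratio of 6.57. Control replicate 3 stood at 8728, MTX replicate 3 at 5750.2, HMS-I1 replicates 2 and 3 at 7991 and 3451, AA replicates 2 and 3 at 6881 and 4105, and TSA replicate 2 at 5015. As a share of the summed signal of a library, members made up 0.0322% to 0.0355% within the first set and 0.00927% to 0.0412% within the second.

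The receptors too low to be members followed the same course. Their sum ran from 1384 to 1869 within the first set and from 321 to 2071 within the second, again lowest in TSA replicate 3 and highest in MTX replicate 2. It had a Pearson r of 0.982 (Spearman rho 0.957) with the median log2 level of the members over the 15 libraries, 0.975 within the 9 libraries of the second set and 0.557 within the 6 of the first. Receptor pseudogenes summed to between 4129.6 and 5163 within the first set and between 1207 and 3445 within the second (r = 0.898 with the member median over the 15 libraries, -0.07 over the 6 of the first set alone and 0.83 over the 9 others). The highest of them, Olfr1372-ps1, had a mean of 1849.7, above every member. It alone was at 2658 to 3228 in first-set and 486 to 2379 in second-set libraries, and 16 of the 535 pseudogenes had a mean of at least 10. The pseudogene sums and their r thus rest largely on few genes. These correlations are descriptions over libraries that share the same set structure.

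**Figure D2:**
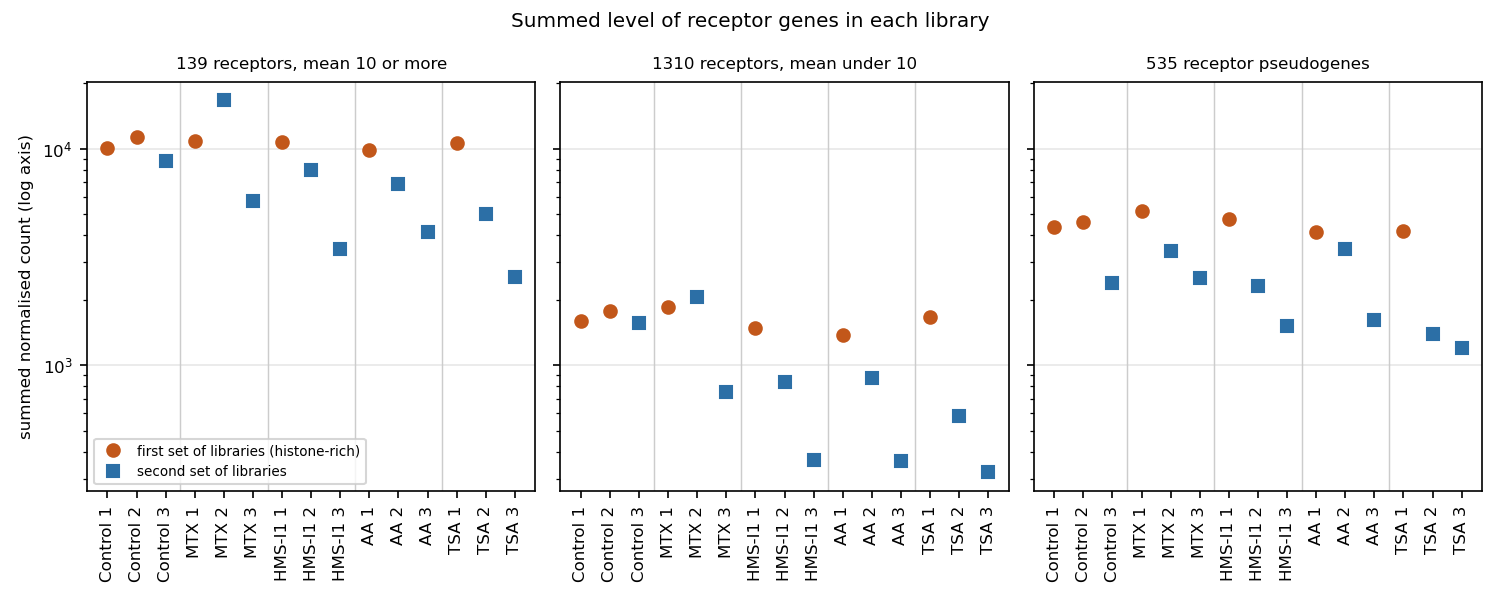
Summed normalised counts (log axis) in each of the 15 libraries for the 139 members, the 1310 receptors under the mean of 10 and the 535 receptor pseudogenes. The 6 first-set libraries (circles) lie close together in each panel. The second-set libraries (squares) spread down to TSA replicate 3, and MTX replicate 2 lies above every circle for the members and for the receptors under the mean of 10.

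Members leaned to the first set, whereas genes at large differed between the sets in both directions. The median member was 1.04 higher in the first set on the log2 scale, against 0.001 for all 17896 genes tested, and 109 of 139 members were higher there (50.1% of all genes). Every first-set library lay above every second-set library for 32 members (23.0%), where 12.8% of all genes tested did so, and the reverse held for 0 members against 12.0% of genes. Median differences were alike in the families, with 1.08 for Olfr, 0.72 for Vmn1r and 1.03 for Vmn2r members. First-set libraries counted in the mean that chose the members, so high values there could have made a low receptor a member. The part of that choice in the lean to the first set was not tested. Genes at large had far higher levels, and the sets were not compared for genes of a like level. Cell type markers differed between the sets too. Sums of the 6 elongating spermatid markers ran from 628486 to 906766 in first-set libraries and from 192844 to 423513 in the others. Sertoli markers (6 genes) summed to 4491 to 4909 and 8340 to 12926, and round spermatid markers (6 genes) to 28936 to 36220 and 11967 to 42028. The part of these markers, and of the histone, mitochondrial and estimated read values, in the receptor differences was not tested.

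Vmn2r10 and Vmn2r107, vomeronasal receptors of the Gnao1 class, showed the widest such gaps. Vmn2r10 was at 84.2, 116 and 2.57 in Control, 127, 2.35 and 5.92 in MTX, 118, 3.18 and 3.31 in HMS-I1, 55.3, 4.13 and 3.73 in AA, and 67.8, 0 and 1.71 in TSA. Vmn2r107 was at 163, 202 and 9.63 in Control, 222, 13.1 and 13.8 in MTX, 218, 9.0 and 7.02 in HMS-I1, 234, 13.3 and 8.45 in AA, and 158, 6.74 and 1.76 in TSA. In both, replicate 1 of every treatment lay with Control replicates 1 and 2, far above all others. With second-set values of 5.92 or less, Vmn2r10 reached the mean of 10 only through the first set. On the log2 scale the gaps between sets were 4.67 and 4.42, and Olfr539, the member most like Vmn2r10 (r = 0.983 over 15 libraries), differed by 2.70. With Vmn2r10, 36 of the other 138 members had an r over 0.8. Since Vmn2r10 separated the sets so widely, r with it largely follows the set split, and the same share over all genes tested was not counted.

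A smaller group ran the other way. Olfr1039 was at 0 to 2.59 in the first set and at 26.8 in Control replicate 3, 143 in MTX replicate 2, 29.7 in HMS-I1 replicate 2, 22.3 in TSA replicate 2 and 7.96 or less in the other 5 second-set libraries. MTX replicate 2 alone held 59.7% of its summed value, and it was the only member with over 50% in 1 library. The difference between sets was -2.66 for Olfr1039, -2.03 for Olfr56, -1.91 for Vmn1r227, -1.80 for Olfr330, -1.51 for Olfr77 and -1.47 for Olfr90, and it was below -1 for 9 members in all. These were picked for that difference after their values were seen.

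MTX replicate 2 was the highest library of the second set for 83 of the 139 members (59.7%), while it was so for 23.1% of all genes tested. That library counted in the mean of 10, so high values there could have made a low receptor a member. TSA replicate 3 was the lowest of that set for 55 (39.6% against 11.3%). Over all 15 libraries, 113 members had their lowest value in TSA replicate 2 or 3, HMS-I1 replicate 3 or AA replicate 3. These libraries were named after the values were seen, and the same share over all genes tested was not counted. Pairs of members had a median r of 0.49 over the 15 libraries (9591 pairs), whereas members and all genes tested had a median of -0.003. The 21 pairs that neighbour each other among receptor genes had a median of 0.54, little above that of members in general.

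**Figure D3:**
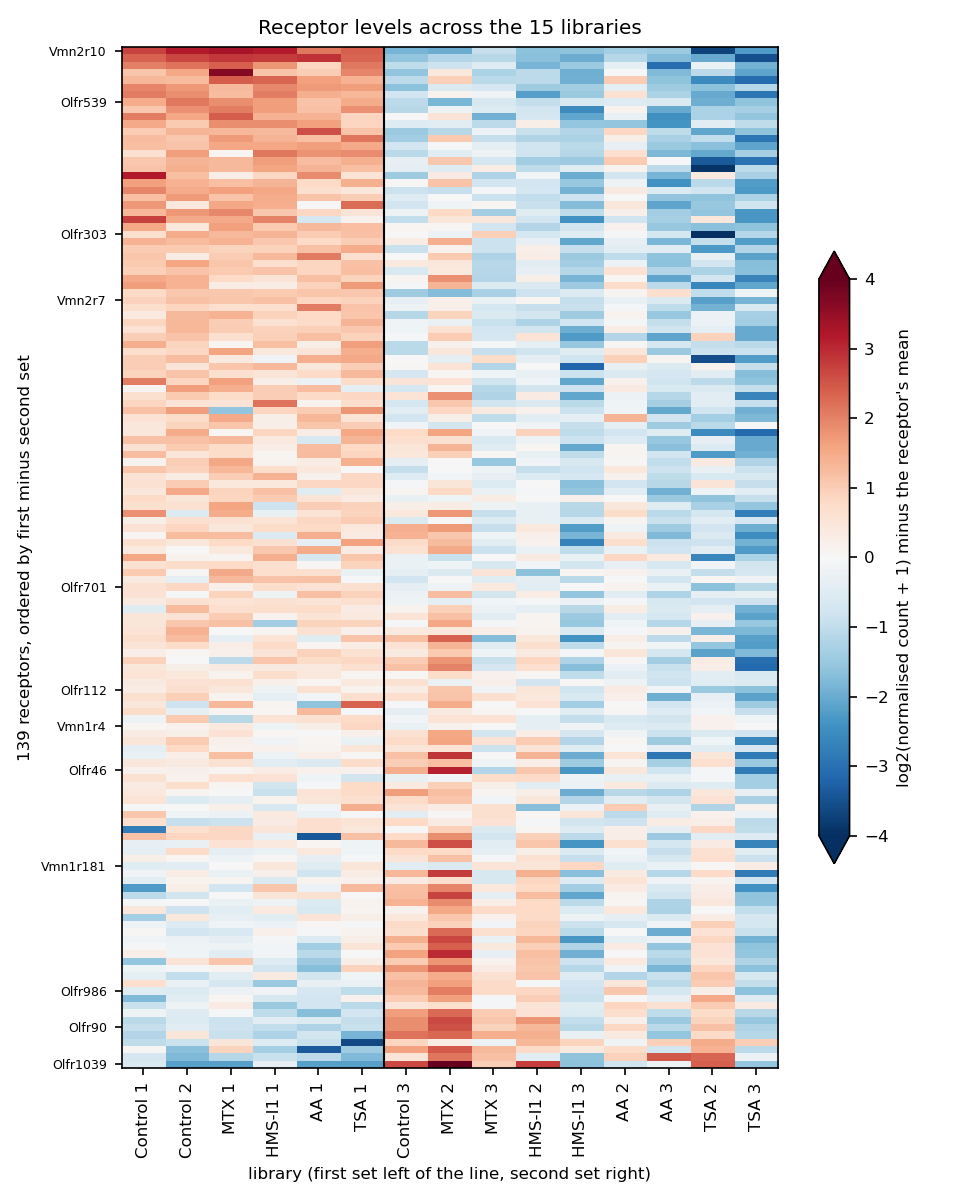
Log2(normalised count + 1) of the 139 members, each minus its own mean over the 15 libraries, with members in rows ordered by the difference between sets and libraries in columns, the first set left of the line. The upper rows are high in all 6 first-set libraries, the lower rows are high in Control replicate 3 and MTX replicate 2, and HMS-I1, AA and TSA replicates 3 are low in most rows.

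The genes most like the 3 leading members did not carry symbols of the receptor families. They were picked for the highest r among 17896 genes tested, over libraries that share the same set structure. Over the 15 libraries, Olfr46 was most like Gm17132 (r = 0.991), Gm42785 (0.988) and Gm48541 (0.988). Vmn2r7 was most like Izumo3 (0.994), a gene of the sperm acrosome, Rp2 (0.990) and Bbs5 (0.989), which encodes a subunit of the ciliary BBSome. Olfr701 was most like B330016D10Rik (0.982), Mgat4c (0.978) and Gm20738 (0.977). Among members, Olfr46 was most like Vmn1r55 (0.967), Vmn1r81 (0.947) and Vmn1r6 (0.946).

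Some receptors were even across libraries. Among members with a mean of at least 20, the range between the lowest and highest library was narrowest for Vmn1r4 (1.38 on the log2 scale), Vmn1r181 (1.40), Olfr212 (1.46), Vmn1r40 (1.47) and Vmn2r1 (1.62), against a median of 3.60 for the 139 members and 1.72 for all genes tested. It was widest for Vmn2r10 (7.0), Vmn2r107 (6.42), Olfr303 (6.11), Olfr46 (5.90) and Vmn2r76 (5.76). Members had far lower levels than genes at large (median mean 23.7 against 448), and ranges were not compared at a like level. Vmn1r4 stayed within 34.4 to 90.9 in all 15 libraries, and Vmn1r40 within 13.2 to 38.5. Olfr303, at 4.41 in TSA replicate 2 and 372 in Control replicate 2, had no 31-base word in common with another gene.

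Signalling partners of these receptors were present unevenly. Of 18 genes of olfactory transduction, 14 had a mean of at least 10, among them Pde1c, the calmodulin-dependent phosphodiesterase (6611), Gnb1 (4538), Reep1 (3381) and Grk3 (1229). Adcy3 had a mean of 106, Gnal of 57.0 and the channel subunit Cnga4 of 50.2, while Cnga2, the principal channel subunit of olfactory cilia, had 3.48. The chaperones that bring odorant receptors to the membrane were low, with Rtp1 at 13.9 and Rtp2 at 2.23. Of 9 vomeronasal genes 7 passed, led by Gnai2 (2716), Gnao1 (890.3), Ano1 (612) and Itpr3 (456), but Trpc2 was at 0 in 14 libraries and at 9.11 in 1. Whether the unnamed annotation gives reads of Trpc2 to another gene was not checked, so these values do not show that its transcript was absent.

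All 18 genes of sperm cyclic AMP and calcium signalling had a mean of at least 10, led by Catsperz (11913), Adcy10 (9565), Prkar1a (8948) and Catsper2 (7858). Of 9 markers of olfactory neurons and epithelium, 5 had a mean of at least 10, namely the transcription factors Emx2 (199.8), Lhx2 (157) and Ebf2 (50.2), the adhesion molecule Ncam2 (14.8) and the G protein subunit Gng13 (11.4). The other 4 were near 0, with Cnga2 as given above, Omp of mature olfactory neurons at a mean of 1.31 (0 in 6 libraries), Stoml3 at 0.537 (0 in 10) and Cyp2g1 of supporting cells at 0.664 (0 in 9). The 9 had sums of 343 to 422 in first-set libraries and 253 to 810.1 in the others. Of 4 vomeronasal neuron markers, Meis2 (43.1) and Gng8 (19.0) passed a mean of 10 while Tfap2e (2.22) and Trpc2 did not, and the 4 summed to 26.8 to 102 and 42.0 to 84.4. The part of nasal cell types in the receptor signal was not tested. Other chemoreceptor families were split. The bitter taste receptors Tas2r had 0 of 35 genes past a mean of 10 and the formyl peptide receptors Fpr 0 of 8, whereas Tas1r had 2 of 3, with Tas1r1 at 335, and Ms4a genes 13 of 19.

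**Figure D4:**
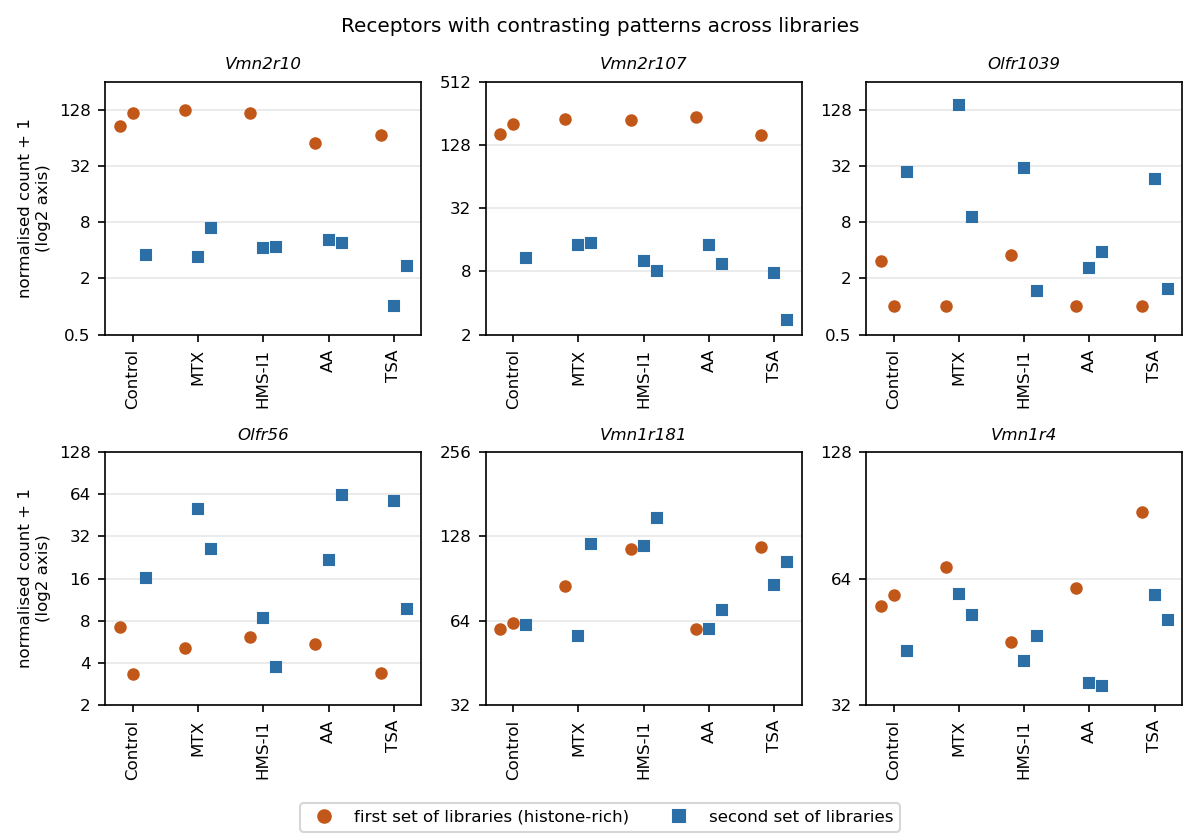
Normalised count + 1 (log2 axis) of 6 receptors by group, with 1 point per library in replicate order, circles for the first set and squares for the second. Vmn2r10 and Vmn2r107 separate by set, Olfr1039 and Olfr56 are highest in squares, and Vmn1r181 and Vmn1r4 stay within narrow ranges.

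Against Control, no member passed an adjusted p of 0.05 in any of the 4 treatments or in the F-test over the 5 groups (limma). The share of all 17896 genes that passed was 0% in each. At an unadjusted p under 0.05 there were 0 members in MTX (0.548% of all genes), 3 in HMS-I1 (0.408%), 3 in AA (0.799%), 8 in TSA (5.74%) and 3 in the F-test (1.29%). The smallest adjusted p of a member was 0.848, in TSA, and 0.9999 or 1 in the others. The 4 comparisons share their controls, so they are not independent of each other. In whole testis, fewer cells of a type and less RNA per cell cannot be told apart.

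Most members nevertheless had lower mean values in 3 of the treatments. The difference was below 0 for 77 of 139 members in MTX, 121 in HMS-I1, 121 in AA and 127 in TSA, while 52.1%, 52.1%, 52.7% and 49.5% of all genes lay below 0. Control libraries counted in the mean that chose the members, and the part of that choice in these counts was not tested. On the log2 scale the median member differed by -0.08 in MTX, by -0.64 in both HMS-I1 and AA, and by -0.88 in TSA, against -0.01, -0.02, -0.02 and 0.006 for all genes. The library medians of the members had a pooled SD within groups of 0.78, which is as large as these differences or nearly so. That SD describes single libraries of both sets and is not the error of a difference between means of 3 libraries. Testis cell type markers also differed in mean from Control, with 0 of them past the limma threshold. Round spermatid markers had negative differences in 6 of 6 in TSA (median -1.40) and elongating spermatid markers in 6 of 6 in both AA (-0.72) and TSA (-0.87), while Sertoli markers had positive ones in 6 of 6 in AA (0.38) and TSA (0.57). In MTX and HMS-I1 the medians were -0.46 and -0.24 for elongating spermatid, 0.04 and -0.17 for round spermatid and 0.20 and 0.26 for Sertoli markers. Their part in the receptor values was not tested. By group, the members summed to 10031 ± 1296 (SD, n = 3) in Control, 11097 ± 5499.9 in MTX, 7372 ± 3652 in HMS-I1, 6953 ± 2884 in AA and 6043 ± 4107 in TSA.

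Control holds 2 first-set libraries and each treatment 1, so the sets bear on these values. Within the first set the member medians against Control were 0.07 (MTX), -0.004 (HMS-I1), -0.09 (AA) and 0.11 (TSA), with 1 treated library and 2 controls each. Within the second set they were 0.10, -0.70, -0.57 and -1.12, against Control replicate 3 alone. With the set as a term in the model the medians were 0.22, -0.32, -0.27 and -0.62, and MTX then lay above Control. Single libraries weighed on them as well. Without replicate 3 of the treatment the medians were 0.23 in MTX, -0.19 in HMS-I1, -0.24 in AA and -0.32 in TSA, and without replicate 1 they were -0.98 in HMS-I1, -0.91 in AA and -1.44 in TSA. The lower member medians of HMS-I1, AA and TSA were thus found in the second set and not in the first, a difference that was not tested. Members lay on both sides of Control in the first set, with 70 of 139 below it in HMS-I1, 80 in AA and 63 in TSA. The medians of all genes tested there were 0.01, -0.006 and 0.005, and the share of all genes below Control was not counted.

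**Figure D5:**
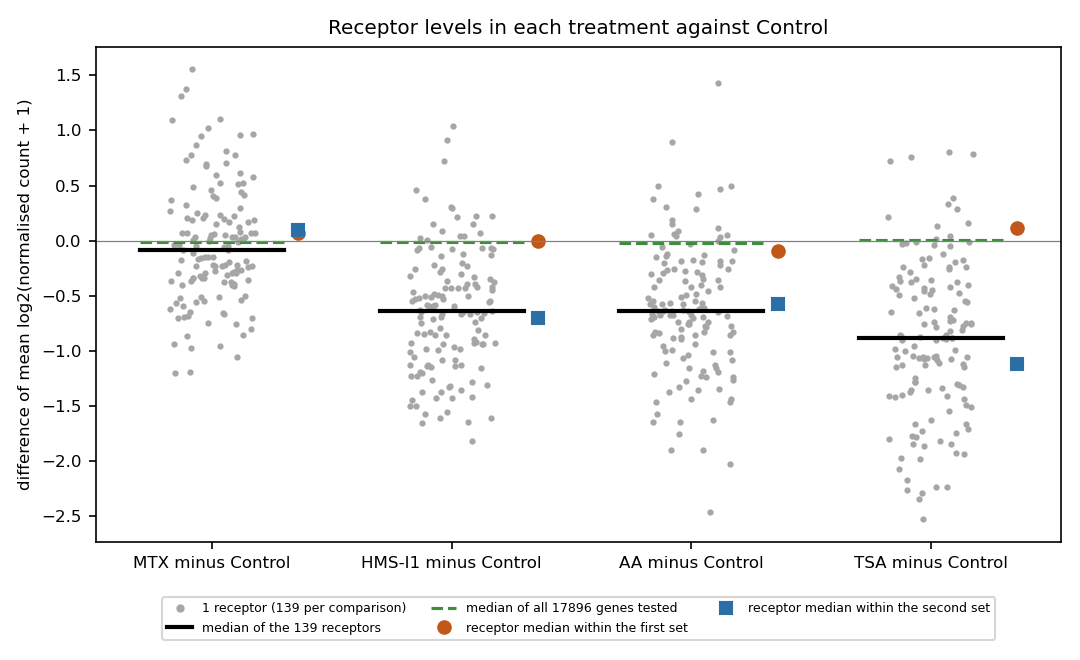
Difference in mean log2(normalised count + 1) of each treatment minus Control for the 139 members (grey points), with the member median (black line), the median of all 17896 genes tested (dashed) and the member medians within the first set (circle) and the second set (square). The member medians of HMS-I1, AA and TSA lie below 0 overall and within the second set, while those within the first set lie between -0.09 and 0.11.

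Where groups did not overlap, members were mostly lower in the treated libraries. All 3 treated libraries lay below all 3 controls for 0 members in MTX (1.15% of all genes), 14 in HMS-I1 (10.1% of members, 1.35% of genes), 14 in AA (10.1% against 2.23%) and 7 in TSA (5.04% against 2.18%). All 3 lay above for Vmn1r181 alone in HMS-I1 and in TSA and for 0 members in MTX and AA, where 1.35%, 2.36%, 1.32% and 2.81% of all genes did so. In at least 1 treatment 24 members (17.3%) lay below Control, where 5.73% of all genes did, and in at least 2 treatments 11 (7.91%), where 0.950% did. The 24 included Olfr735, Olfr731, Olfr607 and Olfr472 (HMS-I1 and AA), Vmn2r69 and Vmn1r46 (HMS-I1 and TSA) and Olfr128 and Olfr1336 (AA and TSA). None of the 24 was below in 3 treatments, as 0.196% of all genes were. Control libraries counted in the mean of 10, so low members could have passed partly through high Control values. Olfr607, for example, had a mean of 10.01 and was at 18.8, 18.8 and 13.0 in Control. The shares of members are thus a description of the chosen genes.

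Vmn1r181, a receptor of the Gnai2-coupled vomeronasal family, was the exception in direction. It was at 58.8, 61.9 and 60.8 in Control, 84.2, 55.2 and 119.7 in MTX, 115, 117 and 148 in HMS-I1, 58.8, 58.7 and 69.1 in AA, and 116, 84.8 and 103 in TSA. All HMS-I1 and TSA libraries lay above all controls, in both sets, while MTX and AA overlapped Control. The log2 difference was 1.04 (SE 0.30) in HMS-I1 and 0.72 (SE 0.30) in TSA, with limma adjusted p of 1 and 0.859. Its r with the other members had a median of -0.28 and was lowest with Olfr46 (-0.56).

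Vmn2r69 had the smallest p of the lower members in TSA. It was at 43.1, 78.1 and 38.6 in Control, 29.0, 39.0 and 35.1 in MTX, 31.6, 32.0 and 19.1 in HMS-I1, 44.6, 27.8 and 32.9 in AA, and 33.9, 7.43 and 7.60 in TSA. Its difference in TSA was -1.92 (SE 0.54, limma adjusted p = 0.848), carried by replicates 2 and 3. Olfr112 differed by -1.41 (SE 0.48, limma adjusted p = 0.848), at 335, 419 and 331 in Control and 297, 95.5 and 86.5 in TSA. The smallest p of the lower members in AA was that of Vmn2r60 (-2.46, SE 0.94), at 21.8, 17.9 and 17.1 in Control and 0, 11.5 and 2.77 in AA, and its difference was -1.53 without AA replicate 1. Next by p came Olfr607 in AA (-1.90, SE 0.80). In HMS-I1 the 2 smallest were those of Vmn1r229 (-1.61, SE 0.73) and Olfr735 (-1.82, SE 0.84), which were -1.05 and -1.12 without HMS-I1 replicate 3. The limma adjusted p of these 4 was 0.9999 or 1.

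Higher members were few and uncertain. Vmn2r29 was 1.10 higher in MTX (SE 0.81), 0.72 in HMS-I1 and 0.90 in AA, but Control itself was at 2.82, 40.3 and 25.5, and without Control replicate 1 the differences were 0.07, -0.31 and -0.14, against 1.78, 1.40 and 1.58 without Control replicate 2. Olfr56 was 1.43 higher in AA (SE 1.17), at 4.45, 20.7 and 62.2 against 6.18, 2.32 and 15.1 in Control, with the values of Ifi47 moving with it as given above. That difference was 0.86 without Control replicate 2, 0.58 without AA replicate 3 and 2.35 without AA replicate 1. Olfr1173 was 0.80 higher in TSA (SE 0.80), at 18.5, 48.3 and 11.2 against 4.06, 11.5 and 33.8. It was 0.12 without Control replicate 1, 0.24 without TSA replicate 2, 1.25 without TSA replicate 3 and 1.51 without Control replicate 3. In MTX the lower members with the smallest p were Vmn2r69 (-0.56, SE 0.54; -0.25 without Control replicate 2) and Olfr635 (-0.85, SE 0.86), the latter at -0.23 without MTX replicate 3 and -1.33 without MTX replicate 1. None of these passed the limma threshold.

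Without TSA replicate 1, its only first-set library, 12 of 139 members (8.63%) passed in TSA against Control with limma, all of them lower, where 5.54% of all genes passed. In the F-test without that library Vmn2r71 alone passed, where 1.37% of all genes did. They were Vmn2r71, Vmn2r69, Olfr127, Olfr112, Olfr361, Olfr128, Olfr787, Vmn1r65, Olfr701, Vmn2r7, Vmn1r226 and Olfr303, with differences from -1.73 for Olfr701 to -3.87 for Olfr787 and limma adjusted p from 0.0055 for Vmn2r71 to 0.0478 for Olfr303. That comparison sets 2 second-set libraries against a Control group with 2 of 3 libraries in the first set. Of the 12, Vmn2r7 and Olfr787 were among the members whose first-set libraries all lay above the second set. Among the partner genes, 0 of 14 olfactory, 0 of 7 vomeronasal and 0 of 18 sperm signalling genes passed in any treatment with all libraries in the fit, and the medians of the 3 lists lay between -0.39 and 0.08.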

How the data were processed

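Per the submitters' processing notes, the authors worked with Salmon 0.12.0, FastQC 0.11.9 and DESeq2 1.34.0 on the build GRCm39, with an unnamed annotation. The deposited signal is a table of normalised counts, not whole reads, for 36118 genes and 15 libraries. Symbols, transcript lengths and 31-base words came from GENCODE (GRCm38), matched by Ensembl number (293 genes unmatched), so that only upstream windows carry coordinates. Depth is unknown. The value of 1 read was taken as the most frequent value below 5 in a library. Values were tested as log2(value + 1), which understates changes near 0, for 17896 genes with a mean of at least 10, with limma 3.58.1 in R 4.3.3 (trend, 1 fit of 5 group means, two-sided, Benjamini-Hochberg over all genes, threshold 0.05). The script was first tested on simulated data.

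Members, gene lists and the naming rule were chosen with earlier results of these data known. The rule names the 10 highest members per kilobase, the 2 highest of each family, the 2 higher and 2 lower members of each comparison with the smallest p, the 5 widest and 5 narrowest ranges, members with over 50% of their sum in 1 library, the 3 nearest genes on each side of the mean of 10, and the 3 genes most like each of the 3 highest members. Names outside it (genes that overlap or share sequence, members that differ between the sets, groups that do not overlap) were chosen after their values were seen. Alternatives were other pseudocounts, scalings, filters, a term for the library set, a replicate block and leaving out each library.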

Additional observations from a re-analysis of the deposited data

How the results depend on the processing

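No member passed the threshold under 0.5 or 10 as pseudocount, without the filter, after recentring or TMM scaling (unweighted, written out by hand), in fits of only the 2 groups, or with the library set as a term. Leaving out libraries gave 0 to 12 members for TSA against Control and 0 to 1 for the F-test of the 5 groups (Vmn2r71), the 12 and the 1 both without TSA replicate 1, and 0 for MTX, HMS-I1 and AA. Median differences then ran from -0.29 to 0.23 for MTX, -0.98 to -0.19 for HMS-I1, -0.91 to -0.24 for AA and -1.44 to -0.32 for TSA, so the MTX median has no stable sign. The receptor count was 214 at a mean of at least 5, 34 at 50, and 132 to 144 with a library left out. Vmn2r29 changed sign without Control replicate 1, to -0.31 in HMS-I1 and -0.14 in AA, in ranges of -0.31 to 1.40 and -0.14 to 1.58, since it lay at 2.82 in that library.

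With the replicate number as a block, 0 members passed in the 4 comparisons (smallest limma adjusted p for TSA 0.247), and 0, 15, 16 and 41 members had an unadjusted p under 0.05 for MTX, HMS-I1, AA and TSA (0%, 10.8%, 11.5% and 29.5%), where 1.80%, 2.32%, 4.25% and 15.4% of all genes did. Whether the numbers pair the samples could not be told. Deviations from the group mean were correlated between treated and Control libraries of the same number. The r was 0.41 to 0.52 for replicate 1, -0.58 to -0.30 for replicate 2 and 0.21 to 0.67 for replicate 3. Control replicate 2 is in the first set and replicate 2 of every treatment in the second, so these values cannot be told apart from the library sets. By the estimated value of 1 read, first-set values of low receptors rest on few reads, and no counting interval can be given. The HMS-I1 group rests on the titles, and the genome build of the names differs from that of the values.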
